A study of Mus musculus with 3 samples.

Results

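A DNase I footprint is a short stretch inside open chromatin that DNase I cut less often than the bases on either side, as happens where a bound protein covers the DNA. The report describes the wide footprints of embryonic mouse liver, defined as entries of the deposited footprint lists whose end minus start was 30 bp or more. There were 23875 of them among 501305 footprints in 3 lists, 1 list per replicate. The 3 replicates form the only group: liver tissue of embryos aged 13.5 days, strain C57BL/6N,129, homozygous (HOM) for a globin mutation that is an HS2 HS3 deletion. All libraries carry this deletion, no unaltered liver is analysed here, and the labels number the libraries as biological replicates with separate biosample records under 1 donor record. Whether they came from separate embryos is not stated there, so the spread between them may be partly technical. The members were chosen by their measured width, so their number and widths are descriptions. Footprints of 10 bp or less, called narrow below, serve as the contrast.

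A single transcription factor that sits on a short motif usually shields little more than the motif. Longer shielded stretches are known from proteins with many DNA-binding domains, such as CTCF, whose row of zinc fingers reads a long site, and from assemblies of several proteins. On transfer RNA (tRNA) genes, which RNA polymerase III transcribes, the factor TFIIIC binds an A box and a B box inside the gene and TFIIIB then sits just before its start. At promoters of protein-coding genes, factors such as NRF1, NF-Y and the Sp and KLF families bind side by side before the start. Liver at this age is the main site of red cell formation, where GATA1, TAL1 and KLF1 act.

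The wide footprints fell into 4 kinds, and the following sequences show them as the reference genome reads (GRCm38, the mm10 build of the files). Each stretch was a wide footprint in all 3 replicates and spans the outermost ends of the 3. These 8 are the widest such positions at which the footprint of every replicate held the whole motif, for each of 8 motifs, with the letters of the motif, or of its reverse complement, in capitals.
CTCF, chr4:133910732-133910784, plus strand: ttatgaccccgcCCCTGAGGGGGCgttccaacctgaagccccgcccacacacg
NRF1, chr17:78916452-78916509, minus strand: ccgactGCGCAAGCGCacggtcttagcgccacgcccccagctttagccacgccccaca
GC box, chr17:23547309-23547370, minus strand: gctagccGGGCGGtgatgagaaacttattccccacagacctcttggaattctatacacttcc
TAL1 E-box, chr3:19628942-19628995, plus strand: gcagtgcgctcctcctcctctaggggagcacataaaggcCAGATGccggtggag
CRE, chr14:67008865-67008918, plus strand: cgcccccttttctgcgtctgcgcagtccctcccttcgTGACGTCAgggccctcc
RFX, chr17:70963694-70963760, plus strand: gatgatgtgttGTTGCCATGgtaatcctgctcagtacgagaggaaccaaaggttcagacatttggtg
REST, chr14:63681740-63681773, plus strand: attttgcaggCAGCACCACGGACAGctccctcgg
CGCG element, chr15:31601777-31601821, plus strand: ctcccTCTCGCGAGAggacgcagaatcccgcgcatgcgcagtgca

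The CTCF position lay between genes, 22937 bp upstream of the nearest start, that of Rps6ka1, a kinase gene of the MAP kinase pathway. The NRF1 position covered the start of Cebpzos. The CRE position, with the letters that CREB and ATF factors bind, covered the start of Bnip3l, which encodes the mitophagy receptor that clears mitochondria from maturing red cells. The CGCG position covered the start of Cct5, a subunit of the TRiC chaperonin. The REST position lay in an intron of Xkr6, the TAL1 position 267 bp upstream of a start of 1700064H15Rik, and the RFX position in an intron of Gm26561. At the RFX position 11 bases started or ended no word unique in the reference assembly, a measure described further on. Their part in its width was not tested. The GC box position touched a tRNA-Lys gene.

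Both CTCF shapes described further on are shown by a pair of positions chosen after their values were seen. In the first, near Diexf, the capitals mark the CTCF motif. In the second, 4376 bp upstream of H2-D1, they mark the CTCF motif and, before it, an upstream element. The last, at the start of the theta globin gene Hbq1b, also has its CTCF motif in capitals.
CTCF, short 5′ side, chr1:193130312-193130343, minus strand: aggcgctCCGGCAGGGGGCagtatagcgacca
CTCF with upstream element, chr17:35258313-35258356, plus strand: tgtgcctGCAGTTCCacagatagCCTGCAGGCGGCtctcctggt
Hbq1b, chr11:32286921-32286965, minus strand: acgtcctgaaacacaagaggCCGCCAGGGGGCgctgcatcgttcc

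Wide footprints made up 3.97% of all footprints in replicate 1 (5027 of 126616), 5.63% in replicate 2 (10975 of 194898) and 4.38% in replicate 3 (7873 of 179791), a mean of 4.66% ± 0.865 (SD, n = 3). Replicate 2 had the most. Narrow footprints numbered 72995, 107176 and 103670, and those of 11 to 29 bp 48594, 76747 and 68248. The lists held 28209, 57314 and 41319 peaks in their shorter version, so replicate 2 also had the most peaks. No file used here states the number of reads. Low peak signals were whole multiples of 1 step, and if 1 step is 1 cut per M cuts the depths were 79.4, 119.5 and 132.7 M cuts, so the order of depth is not the order of the number of wide footprints.

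The median wide footprint spanned 34, 35 and 34 bp in replicates 1 to 3, the widest 85, 98 and 98 bp, and the median of all footprints 10, 10 and 9 bp. Widths of 30 to 34 bp took 49.3% ± 3.72 of the wide footprints, 35 to 39 bp 21.8% ± 1.52, 40 to 47 bp 23.4% ± 2.43, and 48 to 98 bp 5.38% ± 1.58 (SD, n = 3). In all they covered 181.6, 408.8 and 285.5 kb of the genome. No break in the number of footprints falls at the threshold: there were 810, 1489 and 1289 footprints of 29 bp, just outside, and 686, 1308 and 1142 of 30 bp, just inside. The CTCF motif lay in 21.9%, 20.5% and 27.5% of those of 29 bp and in 23.6%, 20.7% and 25% of those of 30 bp.

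**Figure D1:**
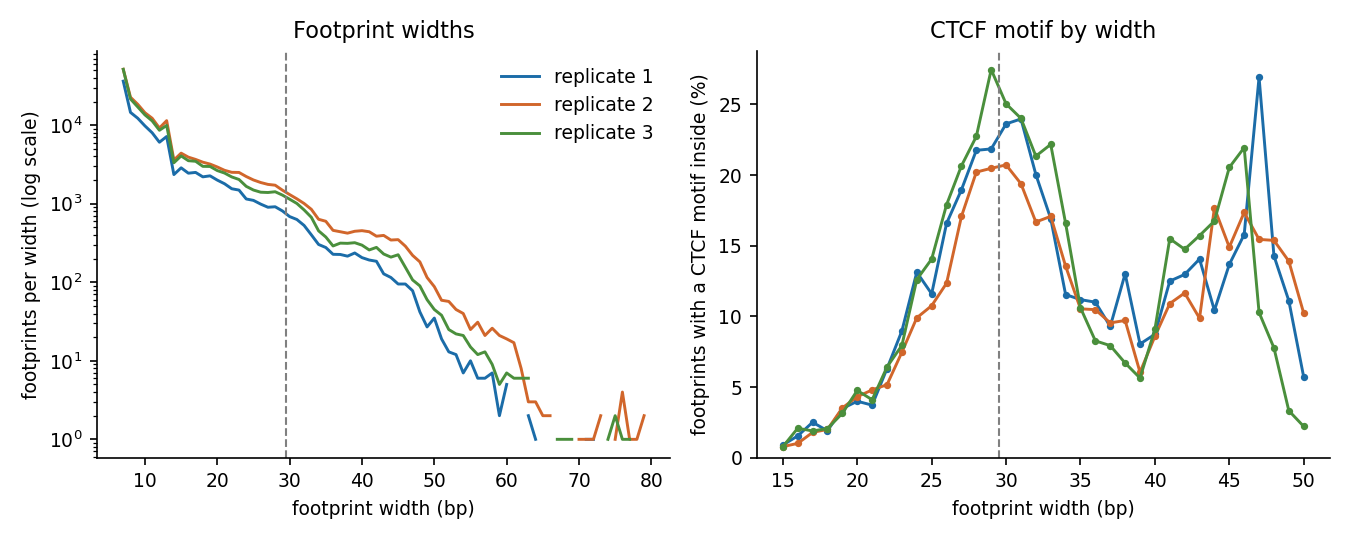
Number of footprints of each width in bp (log axis) and share of footprints of each width that hold the whole CTCF motif, 1 line per replicate. The dashed line is the threshold of 30 bp. A wider footprint has more room for the motif. The numbers fall across the threshold without a break, and the CTCF share is 20.5% to 27.5% on both sides of it.

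Red cell precursors were the cells whose marker promoters were open. The red cell markers Gata1, Klf1, Tal1, Nfe2, Epor and Epb42 each had a shorter-list peak within 500 bp of a start in all 3 replicates. Of 5 hepatoblast markers 1, 3 and 0 had one, and Alb and Afp had none in any replicate. None of 3 macrophage and none of 3 endothelial markers had one, and of 3 mesenchymal markers only Col1a1 did, in all 3. In bulk chromatin, fewer cells of a type and less cutting per cell cannot be told apart.

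Wide footprints were found again in other replicates far more often than narrow ones. Counting a footprint as found where 1 footprint of another replicate overlapped it by at least 50% of both lengths, 98.4%, 87.6% and 95.0% of the wide footprints of replicates 1, 2 and 3 were found in at least 1 other replicate, a mean of 93.7% ± 5.48 (SD, n = 3). The narrow ones reached 29.4% ± 4.80. The difference was 64.3 ± 1.78 percentage points and had the same sign in 3 of 3 replicates. The exact two-sided permutation test over 3 replicates cannot give a p below 0.25, which this and most differences below reach, so they are descriptions of direction and spread. In both other replicates 92.2%, 63.4% and 72.5% of wide footprints were found, against 5.75% of narrow ones on average. A wide stretch tolerates a shift of a few bases at 50% overlap and a short one does not, and under the alternative of centres within 10 bp the difference kept its direction. Against footprints of 11 to 29 bp the difference in recovery in at least 1 other replicate was 25.3 ± 2.15 points. Footprints of 20 to 29 bp were found again in 87.3% ± 6.94. At 29 bp the share was 91.8% ± 5.49, beside 93.0% ± 5.53 at 30 bp. High recovery was thus not particular to wide footprints.

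Where a wide footprint was not found, the other list often split the stretch. Of the 10975 wide footprints of replicate 2, 67.9% were found in replicate 1 and 35.9% were found there as wide footprints. Of the 3524 that were not found, 1410 overlapped 2 or more shorter footprints of replicate 1, 924 overlapped 1, and 1190 overlapped none. Of those 1190, 1078 touched no shorter-list peak of replicate 1. In the other direction 96.1% of the wide footprints of replicate 1 were found in replicate 2, 78.3% as wide ones. Replicate 1 has the fewest peaks and the smallest implied depth, and the part of depth in these shares was not tested.

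At 3144 positions a wide footprint was present in all 3 replicates, which is 62.5%, 28.7% and 39.9% of the wide footprints of replicates 1, 2 and 3. At 1575 of these (50.1%) both ends lay within 3 bp of each other in all 3 lists, and the median spread of an end was 2 bp. Of the 3144, 1746 (55.5%) lay within 1 kb of an annotated start, and 513 (16.3%) lay over 10 kb away. The CTCF motif was inside 505 (16.1%), a tRNA gene overlapped 143, and 1560 (49.6%) held none of the 27 motifs searched.

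Wide footprints sat in stronger peaks than narrow ones. Whole inside a peak of the shorter list lay 91.2%, 89.0% and 91.6% of them in replicates 1 to 3, a mean of 90.6% ± 1.42, against 62.1% ± 3.67 of the narrow ones (difference 28.5 ± 5.09 points, SD, n = 3). With the longer peak list the shares were 92.0% ± 2.36 and 80.1% ± 0.510, a smaller difference of 11.9 ± 2.70 points. Against footprints of 11 to 29 bp the difference in the shorter list was 14.2 ± 2.06 points. The median signal of the shorter-list peaks that held wide footprints, the greatest density of cuts within a peak on the authors' depth-scaled measure, was 4.99, 4.34 and 3.40, against 3.01, 1.54 and 1.88 for narrow footprints. The difference was 2.10 ± 0.651 and positive in 3 of 3 replicates. By width, the median signal was 4.39 ± 0.937 at 20 to 29 bp, 3.56 ± 0.716 at 30 to 34 bp, 5.43 ± 0.624 at 35 to 39 bp, 4.03 ± 0.836 at 40 to 47 bp and 8.22 ± 1.05 at 48 bp or more. Signal was thus higher at 20 to 29 bp than at 30 to 34 bp, in all 3 replicates. Footprints are read from the same cuts as the peaks, and the part of signal in the number and width of footprints was not tested.

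Relative to annotated starts the total near a start did not separate wide from narrow footprints, while the side of the start did. Within 1 kb of a start lay 58.7%, 55.8% and 47.9% of wide footprints in replicates 1, 2 and 3 and 68.0%, 48.4% and 57.9% of narrow ones. The difference changed sign between replicates (-9.34, 7.41 and -9.95 points, mean -3.96 ± 9.85, exact permutation p = 0.5). Footprints of 11 to 29 bp lay there in 71.7%, 58.5% and 63.3%, above the wide ones in all 3 replicates (difference -10.4 ± 6.72 points, exact permutation p = 0.25). Among footprints centred within 200 bp of a start, however, 81.6%, 76.5% and 79.0% of wide ones lay upstream, against 52.5%, 55.4% and 51.7% of narrow ones, a difference of 25.8 ± 4.21 points. Of footprints of 11 to 29 bp within that distance 64.1% ± 0.922 lay upstream, below the wide ones in all 3 replicates. Wide footprints centred 0 to 100 bp upstream were 25.3% ± 3.46 of all wide ones, against 14.4% ± 2.75 of narrow ones. Of those of 11 to 29 bp 23.55% ± 3.495 were centred there, above the wide ones in replicate 3 (22.5% against 21.8%). That share was thus not particular to wide footprints. Centred 25 to 300 bp downstream were 5.52% ± 0.942 of wide ones, 15.7% ± 3.72 of narrow ones and 12.4% ± 1.36 of those of 11 to 29 bp. A start lay inside 9.99% ± 1.45 of wide and 2.36% ± 0.490 of narrow footprints, and a longer stretch has more bases to hold one.

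**Figure D2:**
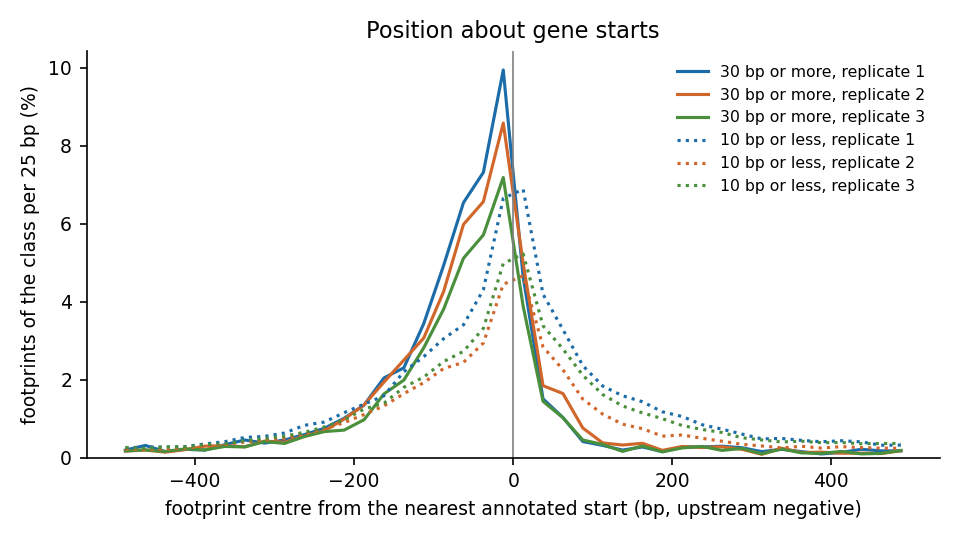
Share of the footprints of each class (percent per 25 bp) by distance of their centre from the nearest annotated start, upstream negative, with wide footprints as solid and narrow ones as dotted lines, 1 colour per replicate. In the last 25 bp before the start lie 9.95%, 8.58% and 7.19% of wide footprints against 6.65%, 4.45% and 4.98% of narrow ones. In the first 25 bp past the start the wide line is still above the narrow one in replicate 2 (4.99% against 4.67%). From 25 bp past the start the wide lines lie below the narrow ones in all 3 replicates.

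Away from starts, wide footprints lay in introns (18.7%), in exons (3.30%) and between genes (23.9%, against 17.7% of narrow ones). Over 10 kb from any start lay 17.9% ± 2.57 of them, and 17.5% ± 4.73 of the narrow ones. The share within 1 kb of a start also varied among wide footprints, with 52.5% ± 5.64 at 30 to 34 bp, 62.0% ± 3.94 at 35 to 39 bp, 49.5% ± 6.55 at 40 to 47 bp and 56.6% ± 5.59 at 48 bp or more. It was highest at 35 to 39 bp in all 3 replicates.

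The central 40 bp of wide footprints were richer in G and C (64.1% ± 1.42, against 59.8% ± 2.77 for narrow ones, difference 4.31 ± 2.29 points, positive in 3 of 3). Against footprints of 11 to 29 bp the difference was 0.977 ± 1.70 points and changed sign between replicates (exact permutation p = 0.5), so the higher GC content was not particular to wide footprints. A base that starts or ends no 32-base word unique in the genome may lack placed reads. Words were counted on the reference assembly, so copies missing from it were not counted, and reads from such copies were not examined. Such bases were 1.42% ± 0.140 of the bases of wide and 1.29% ± 0.0337 of narrow footprints, and the difference (0.128 ± 0.164 points) changed sign between replicates. At least 1 such base was present in 3.56% of wide and 1.57% of narrow footprints. By width this was 2.06% ± 0.288 at 30 to 34 bp, 4.96% ± 0.657 at 35 to 39 bp, 4.37% ± 0.442 at 40 to 47 bp and 8.79% ± 2.20 at 48 bp or more.

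Motif content was compared in windows of one size, the central 40 bp, so that a wide footprint had no more sequence to match than a narrow one. The background was windows of the same size moved by 100 bp that stayed inside the same peak and free of footprints, of which there were only 360, 502 and 446. Letters were searched on both strands, and a match is a description of the sequence, not a binding site. Some motif of the 27 lay in 50.9% ± 2.68 of wide windows and 27.1% ± 1.07 of narrow ones. In all 3 replicates 8 motifs were more frequent in wide windows than in both narrow and moved ones, and 9 were less frequent than in narrow windows. For rare motifs the moved windows were too few to decide. No moved window of any replicate held the RFX or REST motif, so any match in wide windows passed that comparison. Wide windows with RFX numbered 7, 13 and 8 in replicates 1 to 3, and those with REST 8, 37 and 27. Against narrow windows alone 11 motifs were more frequent in all 3, and with the same letters read backwards, without complement, 6 were. Against footprints of 11 to 29 bp in place of narrow ones, 7 motifs were more frequent than in these and in moved windows. Neither RFX nor the GC box was among these 7, so they are not a subset of the 8. The mean RFX difference was -0.0591 points, and the GC box difference changed sign between replicates. Adjusted over 27 motifs the smallest exact permutation p was 0.3375.

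The CTCF motif (CCNNNAGGNGGC) differed most. It lay in 16.2%, 14.2% and 17.2% of wide windows, 1.34%, 1.14% and 1.17% of narrow windows, and 0%, 0.398% and 0.224% of moved windows. The order of the 3 classes was the same in every replicate, and their ranges did not overlap. NRF1 is a regulator of genes for mitochondria, and its motif (GCGCANGCGC) lay in 3.98%, 3.85% and 3.13% of wide and 0.592%, 0.356% and 0.380% of narrow windows. The GC box (GGGCGG) of Sp and KLF factors lay in 24.1%, 21.8% and 17.2% against 12.2%, 7.77% and 9.84%, while 2 or more GC boxes lay in 6.81% ± 1.09 of wide and 1.29% of narrow windows. The GC box letters read backwards lay in 18.8% of wide windows, against 21.02% for the letters as written, while for CTCF the backward letters lay in 0.149% and for NRF1 in 0.536%. Against footprints of 11 to 29 bp the GC box difference was 2.69 ± 3.30 points (exact permutation p = 0.5).

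The cAMP response element CRE (TGACGTCA) lay in 1.24% ± 0.388 of wide and 0.174% ± 0.0230 of narrow windows, and the CGCG element (TCTCGCGAG), found in promoters of housekeeping genes, in 0.338% ± 0.0523 and 0.0620% ± 0.0270. At 20 to 29 bp the CRE share was 1.19% ± 0.2175, near that of wide windows and above it in replicate 3 (1.17% against 1.02%). REST, a repressor of neuronal genes that reads a long site, had its motif (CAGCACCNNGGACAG) in 0.280% ± 0.105 of wide and 0.0682% ± 0.00974 of narrow windows. At 20 to 29 bp the REST share was 0.341% ± 0.0787, above that of wide windows in all 3 replicates. It was 0.533% at 30 to 34 bp but 0.0705% at 35 to 39 bp. With a threshold of 35 or 40 bp the difference from narrow windows turned negative (-0.0326 and -0.0591 points). The RFX motif (GTTGCCATG) lay in 0.120% ± 0.0189 and 0.0737% ± 0.000793, but against footprints of 11 to 29 bp its difference was negative (-0.0591 points). The TAL1 E-box (CAGATG) lay in 2.81% ± 0.223 and 2.27% ± 0.367, the smallest ratio of wide to narrow (1.24) among the 8.

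Among the 9 motifs that were less frequent in wide than in narrow windows in all 3 replicates was the GATA motif (AGATAA), the site of the red cell regulator GATA1. It lay in 0.298%, 0.437% and 0.356% of wide and 1.27%, 3.05% and 1.79% of narrow windows. Its share by width went from 2.04% ± 0.913 at 7 to 10 bp and 1.51% ± 0.627 at 11 to 19 bp to 0.586% ± 0.244 at 20 to 29 bp and 0.360% ± 0.136 at 30 to 34 bp. Within the wide footprints it then showed no steady course, with 0.441% ± 0.0640 at 35 to 39 bp, 0.248% ± 0.0570 at 40 to 47 bp and 0.590% ± 0.154 at 48 bp or more. The joint E-box and GATA motif (CTGNNNNNNNNAGATAA) was in 0.0466% against 0.183%, from only 3, 6 and 2 wide windows in replicates 1 to 3. NF-E2 (GCTGAGTCA), the activator of globin genes, was in 0.179% against 0.244%, from 6, 22 and 17 wide windows. In replicate 3 its shares were nearly equal (0.2159% and 0.2161%). The other 6 were PU.1 (GAGGAAGT), RUNX (TGTGGTT), STAT (TTCCNGGAA), C/EBP (TTGCNNAA), FOXA (TGTTTAC) and the TATA box (TATAAA). Wide windows with PU.1 numbered 7, 14 and 12, with STAT 5, 10 and 8, and with FOXA 3, 10 and 10. Several of the 9 motifs are short and rich in A and T. GC content was higher in the wide windows, and its part in the motif shares was not tested.

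**Figure D3:**
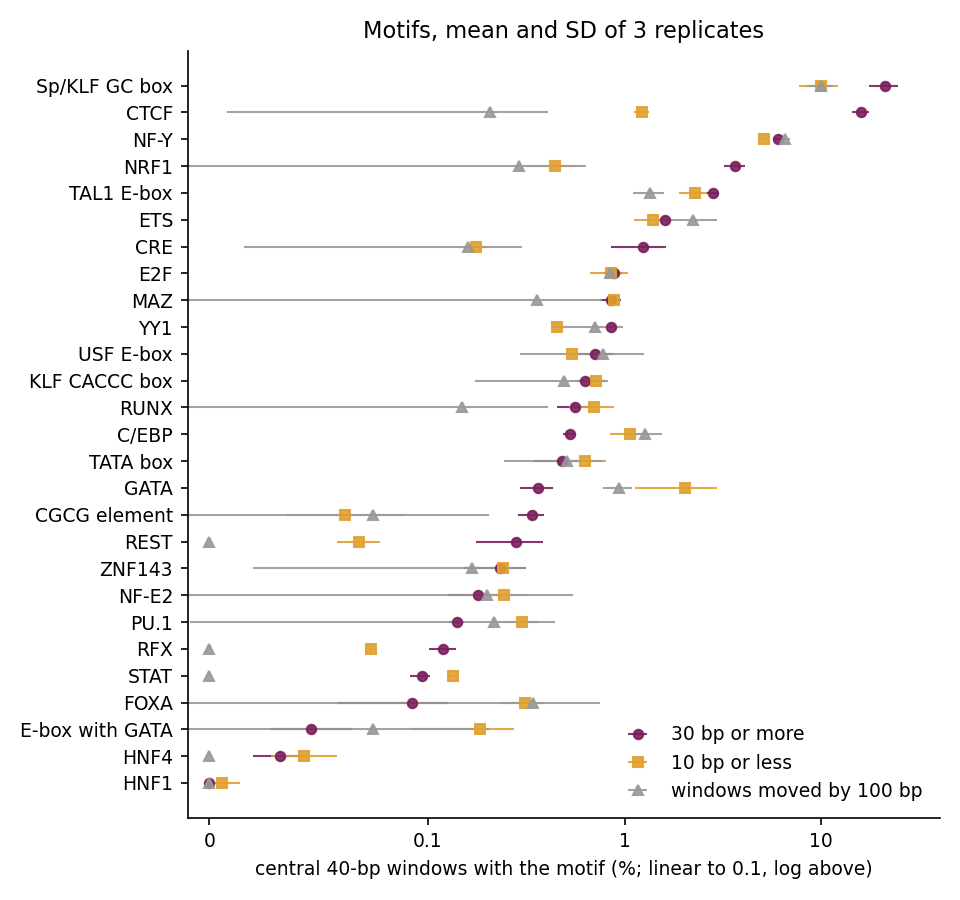
Share of central 40-bp windows that hold each of 27 motifs (percent, log axis) in wide footprints, narrow footprints and moved windows, as the mean and SD of 3 replicates. The CTCF motif is at 15.9% of wide windows against 1.22% of narrow and 0.208% of moved ones, and GATA is at 0.364% of wide against 2.04% of narrow windows.

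Each wide footprint was placed in 1 of 4 kinds. The CTCF motif lay inside 15.7% ± 1.48 of them, a tRNA gene or its 60 bp upstream was touched by 4.13% ± 0.414, another 49.1% ± 5.34 lay within 1 kb of a start, and the remaining 31% ± 4.504 were distal. The median signal of their peaks was 2.32 ± 0.240 for CTCF, 7.21 ± 0.484 for tRNA genes, 8.19 ± 1.12 near starts and 2.01 ± 0.289 for the distal rest. CTCF and distal footprints therefore sat in weaker peaks than the others in every replicate. Of CTCF footprints 24.8% ± 2.99 lay within 1 kb of a start. In the distal rest a broader CTCF motif with 1 fixed letter fewer (CCNNNAGNNGGC), added after the data were seen, lay in 36.1% ± 1.46, against 2.90% of narrow windows overall. The CTCF upstream element (GCAGTNCC), also added, lay in 13.3% ± 1.04 of them, against 1.03% ± 0.0598 of narrow windows overall. The broader motif lay in 19.85% ± 1.22 of all windows of 20 to 29 bp footprints. Narrow windows overall include those near starts, so location and width cannot be told apart in these contrasts.

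The CTCF motif was not most frequent in the widest footprints. Its share of the central windows was 1.22% ± 0.109 at 7 to 10 bp, 2.60% ± 0.333 at 11 to 19 bp, 11.9% ± 1.10 at 20 to 29 bp and 20.7% ± 2.33 at 30 to 34 bp. It then dropped to 9.46% ± 1.35 at 35 to 39 bp, rose to 13.8% ± 1.39 at 40 to 47 bp and was 5.77% ± 2.40 above. The GC box was more frequent at 20 to 29 bp (23.7% ± 2.60) than at 30 to 34 bp (18.2% ± 2.94) in all 3 replicates, and for NRF1 (4.92% ± 1.03 and 4.08% ± 0.377) the replicates differed in direction.

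CTCF footprints of different lengths reached to different distances on both sides of the motif. Those of 30 to 34 bp (521, 893 and 929 footprints in replicates 1 to 3) reached a median of 6 bp before the motif in every replicate and 14, 13 and 14 bp past it. Those of 40 to 47 bp (145, 367 and 270) reached 21, 22 and 22 bp before it and 11, 10 and 10 bp past it. The longer footprints thus reached further on the 5′ side of the motif and less far on its 3′ side. Footprints of 20 to 29 bp ended 5 bp before and 9 bp past the motif in all 3 replicates. The Diexf position shown above was 31, 32 and 31 bp wide, and the position near H2-D1 41, 44 and 42 bp.

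**Figure D4:**
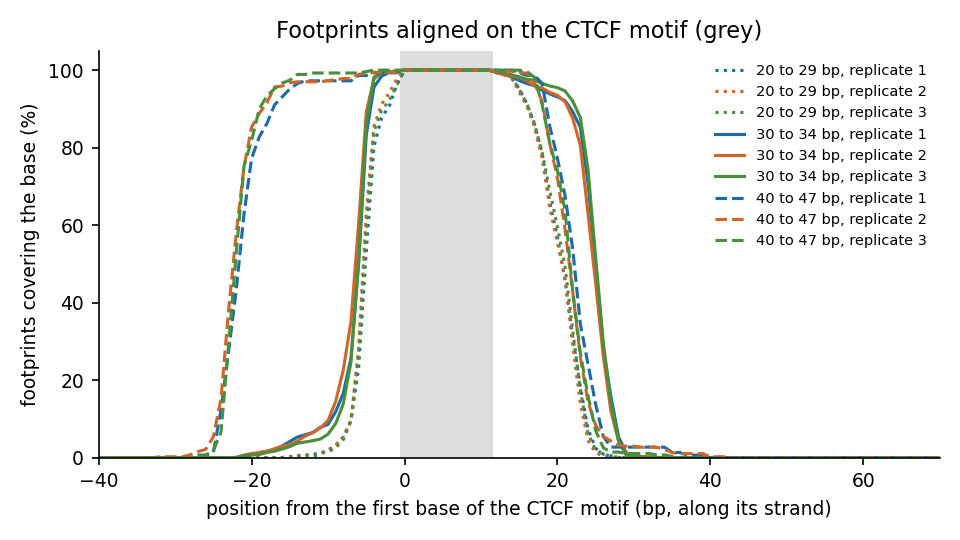
Share of CTCF-motif footprints (percent) that cover each base, aligned on the first base of the motif (grey band) along its strand, for 3 widths in 3 replicates. The footprints of 40 to 47 bp reach a median of 21 or 22 bp before the motif, those of 30 to 34 bp 6 bp.

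CTCF is known to contact a further element upstream of its core at a part of its sites, with zinc fingers that the core does not use. The letters GCAGTNCC were therefore searched around the motif on its strand, after the shapes were seen. Of 98, 153 and 145 matches within 60 bp of the motif, 43, 72 and 73 began exactly 16 bases before its first base and 13, 20 and 18 began 17 bases before. No other position had more than 3, 11 and 7. At one of these spacings the element was present in 9.66%, 8.72% and 12.2% of CTCF footprints of 40 to 47 bp but in 1.15%, 1.12% and 0.754% of those of 30 to 34 bp. Of footprints with motif and element 26.8%, 37.0% and 36.3% were 40 bp or wider, against 5.83%, 9.86% and 6.60% of those with the motif alone. CTCF positions were also counted where the footprints of all 3 replicates lay in the same width class. Of these, 7 of 70 of 40 to 47 bp had the element (10%) and 0 of 177 of 30 to 34 bp. Taking 3 as the largest count that 0 allows, the share at 30 to 34 bp could reach 1.695%. This limit treats the positions as independent, and no confidence level was set for it. Most CTCF footprints of 40 to 47 bp had no match to these exact letters.

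Transfer RNA genes made up a small share of wide footprints but a large share of the widest. RefSeq lists 403 tRNA genes on the assembly. A tRNA gene was overlapped by 1.42% ± 0.308 of wide footprints of 30 to 34 bp and by 18.6% ± 2.92 of those of 48 bp or more, and by 0.0976% of narrow footprints. Only footprints that shared a base with the gene were counted, here and in the split by width that follows. Upstream footprints that ended before the gene were left out, short ones more readily than long ones. Both the shares and the split by width are therefore partly set by this condition. On tRNA genes the footprints counted in this way fell at 2 sites. Of the footprints of 48 bp or more that overlapped a tRNA gene, 38 of 39, 120 of 120 and 83 of 83 began before the gene, with median starts of -48, -48.5 and -48 bp from its first base, and ended at base 7, 6 and 7 of the gene. Of those of 30 to 47 bp, 95.7%, 94.6% and 93.7% began at least 20 bases inside the gene, in the median 39, 38 and 40 bases past its first base, and ended at base 76. The median tRNA gene is 72 bases long, so this inner stretch spans its 3′ part, where the B box lies.

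To count genes, the bases 28 before and 58 past the first base of the gene were taken, both chosen after the coverage was seen. A wide footprint covered the upstream base in 113, 207 and 185 of the 403 genes (28%, 51.4% and 45.9%) and the inner base in 112, 188 and 147 (27.8%, 46.7% and 36.5%). Replicate 1 was lowest at both bases. Both bases were covered in 60, 158 and 118 genes. In all 3 replicates 108 genes had the upstream base covered, 100 the inner base and 54 both. Narrow footprints covered the upstream base in 15, 4 and 14 genes and the inner base in 14, 6 and 8. Median widths were 43, 52 and 48 bp upstream and 37, 38 and 36 bp inside.

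Many tRNA genes are near-identical copies. Of wide footprints on tRNA genes 49.0%, 40.9% and 39.8% held a base with no unique 32-base word. Counting only footprints with no such base left the mean share of genes at the upstream base at 41.5% (41.8% with all footprints), while that at the inner base fell to 11.8% from 37.0%. The inner site therefore rests largely on stretches that a read cannot always place, and what that does to the width was not tested. Further out, at 100 bases before the gene, wide footprints covered 2.73%, 9.18% and 10.7% of genes, against 6.45%, 4.96% and 3.47% for narrow ones.

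A tRNA-Ser gene, n-TStga3, shows both sites. It was chosen after its values were seen, all bases of its wide footprints had a unique 32-base word, and the lowest peak signal over it was 18.8. The stretch runs from 60 bases before the gene, with the bases that lay in wide footprints of all 3 replicates in capitals. The upstream footprint was 49, 62 and 49 bp wide and the inner one 40, 39 and 31 bp. The letters GGTTCGA of the B box lie in the inner capitals.
tRNA-Ser gene n-TStga3, chr10:63429456-63429617, minus strand: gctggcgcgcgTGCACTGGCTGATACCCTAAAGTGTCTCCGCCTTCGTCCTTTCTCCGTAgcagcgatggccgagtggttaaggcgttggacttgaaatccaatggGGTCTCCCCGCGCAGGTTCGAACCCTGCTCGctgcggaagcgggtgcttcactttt

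**Figure D5:**
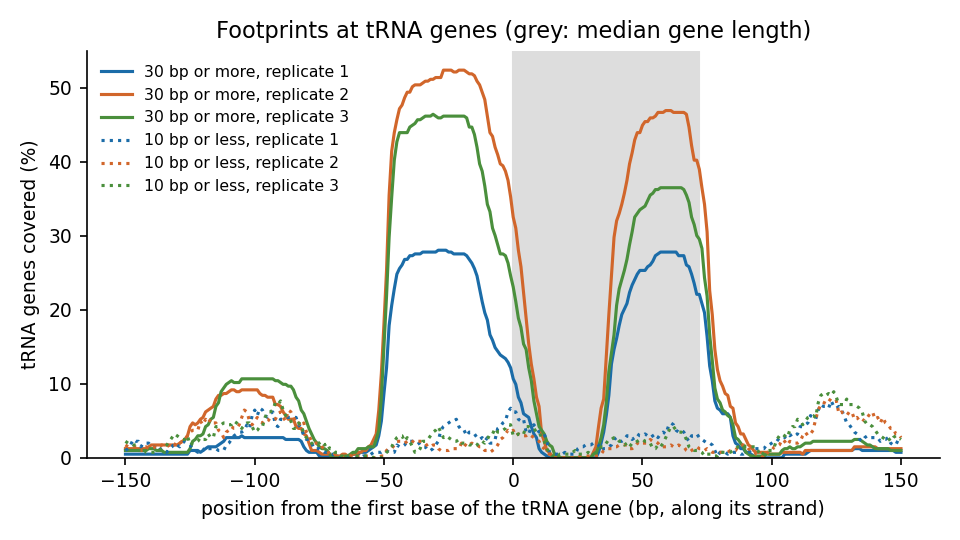
Share of 403 tRNA genes (percent) with a wide footprint over each base, aligned on the first base of the gene along its strand, 1 line per replicate, with narrow footprints dotted. At 28 bases before the start wide footprints cover 28%, 51.4% and 45.9% of genes, and at 58 bases past it 27.8%, 46.7% and 36.5%.

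The 10 widest positions found in all 3 replicates had mean widths of 63.3 to 84.3 bp. In 5 of the 10, among them the 3 widest, some or all bases had no unique 32-base word, and their part in the width was not tested. The widest, in an intron of the long noncoding RNA gene D130009I18Rik, measured 85, 84 and 84 bp with 49 such bases, and it lay whole in a shorter-list peak in replicate 3 only. The second, chr9:3024091-3024188, measured 53, 98 and 98 bp and was repeat-masked and without a unique word over its whole length. Next in width, a stretch in an intron of Gm19951 measured 79, 79 and 79 bp. It shares a run of 31 bases with the widest, on the opposite strand, in capitals below, where no other of the 45 pairs of the 10 shared more than 9 bases.
Widest, in D130009I18Rik, chr14:104715795-104715879, plus strand: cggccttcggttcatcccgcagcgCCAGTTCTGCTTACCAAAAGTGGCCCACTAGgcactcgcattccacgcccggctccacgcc
In Gm19951, chr12:99645577-99645655, minus strand: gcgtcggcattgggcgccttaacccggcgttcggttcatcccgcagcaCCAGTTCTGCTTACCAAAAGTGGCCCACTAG

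Unique sequence made up the other 5. The promoter of Zmynd8, which encodes a chromatin reader, held a footprint of 71, 70 and 72 bp over its start with several NF-Y motifs (CCAAT). The promoter of Dcaf7, a WD-repeat adaptor gene, held one of 77, 76 and 50 bp, centred 173 bp upstream of the start. Its CCAAT and GC box letters are in capitals below. Replicate 3 covered a shorter part of it, and the GC box was not inside the footprints of all 3 replicates. The linker histone gene Hist1h1c held one of 69, 54 and 69 bp over its start. A tRNA-Leu gene (66, 64 and 65 bp) and a tRNA-Ser gene (63, 64 and 63 bp) were the last of the 10, and both footprints began before the gene. Of the tRNA-Leu footprint, shown with the bases of the gene in capitals, only 14 bases lay inside the gene.
Dcaf7, chr11:106036660-106036737, plus strand: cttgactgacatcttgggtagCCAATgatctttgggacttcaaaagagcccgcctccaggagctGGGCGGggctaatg
tRNA-Leu, chr7:120835547-120835613, minus strand: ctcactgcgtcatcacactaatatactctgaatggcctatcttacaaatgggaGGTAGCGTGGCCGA

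Counted by the nearest protein-coding gene within 50 kb, 2731 genes had a wide footprint in all 3 replicates, 536 had 2 or more and 22 had 5 or more. The genes with the most were neighbours of tRNA genes. Abt1, in the histone and tRNA gene cluster of chromosome 13 (chr13:23418361-23423866), had 10, 26 and 21 wide footprints in replicates 1 to 3, of which 8, 20 and 16 were on tRNA genes or their 60 bp upstream. Zfp184, a zinc-finger gene on the same chromosome, had 11, 23 and 20, with 10, 19 and 17 on tRNA genes. Trim27, Trim7, Zfp213, Btn1a1, Olfr1423, Hist1h4h and Cfap126 followed, with 6 to 19 in a replicate. Of the wide footprints of the 10 leading genes 80.5%, 73.1% and 71.3% were on tRNA genes. Klrb1c, which encodes a receptor of natural killer cells, was the exception, with 7, 15 and 13 wide footprints of which none was on a tRNA gene.

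Over protein-coding genes, 10.9%, 19.6% and 13.1% had a wide footprint within 500 bp of a start, a mean of 14.5% ± 4.51 (SD, n = 3). In all 3 replicates 1654 of 21924 genes did (7.54%), or 14.8% of the 11146 genes whose promoter was open in all 3. Narrow footprints were present in all 3 at 88.7% of these open promoters.

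Of 21 erythroid transcription factors 5 had a wide footprint near a start in all 3 replicates. Beside 14.8% over all open genes, these 5 were 26.3% of the 19 with an open promoter. They were Zfpm1, the GATA1 cofactor; Zbtb7a, a repressor of fetal globin; Mafk, a partner of NF-E2; Bach1, a heme-regulated repressor; and Lyl1, a relative of TAL1. Zfpm1 had a pair of them. The first (chr8:122282060-122282092 in replicate 1) was 33, 36 and 34 bp wide and centred 65, 66 and 65 bp upstream of a start. The second (chr8:122333349-122333379 in replicate 1) was 31, 39 and 43 bp wide and centred 334, 344 and 342 bp upstream of another start. At Bach1 the one present in all 3 (chr16:87698806-87698856) was 51, 51 and 52 bp wide and centred 114, 114 and 113 bp upstream. At Mafk the one present in all 3 (chr5:139791462-139791495) was 34, 36 and 34 bp wide with a GC box, and centred 34, 33 and 34 bp upstream. Replicate 2 had 1 more wide footprint at Bach1 and 1 more at Mafk. Ends moved by at most 3 bp between replicates at these Bach1 and Mafk positions and at the first Zfpm1 position, and by more at the second.

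At Zbtb7a the footprint present in all 3 (chr10:81137551-81137590 in replicate 1) was 40, 54 and 39 bp wide and held a GC box, and in replicate 2 it extended further upstream. Another one with a GC box (chr10:81137638-81137670) was present in replicates 1 and 2 only, at 33 and 36 bp. At Lyl1 (chr8:84701643-84701695) it was 53, 50 and 37 bp wide, centred 212, 210 and 210 bp downstream of the start, and held a GATA motif. Narrow footprints were near a start of 100% of the open erythroid factor genes in all 3 replicates, beside 88.7% over all open genes.

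Of 10 globin genes 1, Hbq1b, the theta globin gene of the alpha globin cluster, had a wide footprint near a start in all 3. Only 4 of the 10 promoters were open in all 3 replicates, so this was 25% of them, beside 14.8% over all open genes. The Hbq1b footprint was 43, 45 and 44 bp wide and centred 21, 22 and 21 bp upstream, with the CTCF motif shown above. Peak signals there were 5.10, 6.10 and 4.60. Of its bases 10, 12 and 11 had no unique 32-base word, and their part in the width was not tested.

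The other lists differed in how many such genes they held. Wide footprints near a start in all 3 replicates were found at 2 of 24 erythroid membrane and effector genes (Epb41 and Add2, of the membrane skeleton) and at 2 of 16 heme genes (Urod and Fech, enzymes of heme synthesis). Of 20 cell division genes 5 had one (Mcm2, Ccna2, Ccne1, Cdk1 and Top2a), of 20 ribosomal protein genes 2 (Rpl5 and Rps19), of 20 proteasome genes 1 (Psma4), and of 67 histone genes, a list added after the data were seen, 7. As shares of promoters open in all 3 these were 9.52%, 14.3%, 25%, 10%, 5% and 12.1%, beside 14.8% over all open genes. No wide footprint was near a start of any of 25 hepatoblast, 12 macrophage, 11 endothelial or 15 clustered Hox genes in any replicate, and only 3, 1, 1 and 2 of these promoters were open in all 3.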

How the data were processed

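DNase-seq was analysed from the authors' files of 3 replicates. Per the deposited notes, peaks and footprints were made separately for each library from filtered alignments to mm10. Which aligner and callers were used is not given in the sources used here. In the footprint lists the authors deposited, every entry carries the same false discovery rate (a q-value) of 0.01, so entries cannot be ranked. The deposited peak signal is the highest cut density in a peak, normalized to read depth. The files of local false discovery rates were not used.

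Widths, overlaps and motif letters were computed with Python 3.11.15, numpy 2.4.6 and pandas 2.3.3, with GENCODE M21 starts, RefSeq tRNA genes and the GRCm38 sequence. A position is wide in all 3 where wide footprints of the 3 lists overlap reciprocally by 50%. Differences were taken within replicates and tested by an exact two-sided permutation of their signs, adjusted over motifs by Benjamini-Hochberg. The scripts were tested on simulated data. Named are the 10 widest positions of all 3 replicates, the 10 genes with the most wide footprints, the widest position for each enriched motif, and globin and erythroid factor genes with a wide footprint. Members and lists were chosen with earlier results of these data known. Added after seeing the data were the broader CTCF motif, the CTCF upstream element, the B box, the tRNA bases and the histone list. Alternatives were other widths, overlaps, windows, peak lists and start distances, unique sequence only, and leaving out each replicate. A marker gene and a gene list are not reported here.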

Additional observations from a re-analysis of the deposited data

How the results depend on the processing

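Of 172 values recomputed under alternatives for 22 results, 160 kept their direction and, for counts and untested values, moved by less than 1 SD or 1.5 times. The threshold set the size of the class: with 35 or 40 bp in place of 30 bp the mean number per replicate was 4088 or 2368 (7958 at 30 bp), the share of footprints 2.38% or 1.37%, the positions in all 3 replicates 1544 or 789, and the share of genes 8.46% or 4.72%. The REST difference was -0.0326 and -0.0591 at these thresholds, and the RFX difference against 11 to 29 bp was -0.0591. The inner tRNA site fell to 11.8% with unique footprints only. Some differences kept their direction but shrank. That inside peaks was 11.9 with the longer peak list and 14.2 against 11 to 29 bp, and that of recovery was 25.3 against 11 to 29 bp. Leaving out 1 replicate at a time, the number ranged from 6450 to 9424, the share from 4.18% to 5.01%, the difference within 1 kb of a start from -9.64 to -0.964, that inside peaks from 26.6 to 31.4, that of peak signal from 1.75 to 2.39, that of recovery from 63.3 to 65.1, and that of GC content from 2.99 to 5.07. No paired analysis was possible because there is only 1 group, so no groups to pair across; wide and narrow footprints were compared within each replicate. The depth is not stated, so a stretch with no wide footprint may only lack cuts, and 3 replicates cannot give an exact p below 0.25.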
